A study of Bos taurus with 16 samples.

Results

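The genes of T cells, natural killer (NK) and other cytotoxic cells, and B cells were followed in the blood and the uterus of the same dairy cows. The list held 41 genes, and 39 of them were found by an exact match of the gene name given for each non-control spot: 27 of 27 T cell genes, 7 of 7 NK and cytotoxic genes and 5 of 7 B cell genes. CD79B and CD22 had no spot of that name and were not measured. The 39 genes carried 83 of the 46615 probes and were 39 of the 26554 gene names on the array. A gene with several probes was given the mean of its probes.

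Total RNA of circulating white blood cells (WBC, from PAXgene tubes, which lyse whole blood) and of transcervical endometrial biopsies was measured in 8 Holstein cows at 45 to 55 days postpartum, with 1 single-colour Agilent array per sample. The 4 groups were WBC of 4 healthy cows (841, 850, 877 and 883), WBC of 4 cows with subclinical endometritis (SCE; 718, 833, 836 and 846), and the endometrium (Endo) of the same 4 healthy and 4 SCE cows. SCE is an inflammation of the uterine lining without clinical signs. The cows were classified by histology and cytology of the endometrium, and the histology scored lymphocytes among other leukocytes, so the groups were not defined independently of lymphocytes. The labels name no treatment, and the stage of the oestrous cycle is not tied to single cows in the labels. The paper gives the stage by group. All but 1 of the 4 SCE cows were in the luteal phase, whereas the healthy cows were split evenly between luteal and follicular phase. It also reports that the stage affected several endometrial genes in healthy cows. The SCE comparison is thus unbalanced for stage, and the part of stage in it was not tested.

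T cells recognise antigen through a receptor whose signal is passed on by the CD3 chains and the zeta chain CD247, then by the kinases LCK and ZAP70 and the adaptor LAT. NK cells and cytotoxic T cells kill their targets with perforin, granzymes and granulysin stored in granules. B cells sense antigen through membrane antibody coupled to CD79A and CD79B, and carry the surface protein MS4A1 (CD20). In the endometrium lymphocytes lie among epithelium, glands and stroma, whereas they are a major class of blood leukocytes.

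Probes are single-stranded DNA of 60 bases, so a gene's value is the brightness of 1 to 5 short stretches. A few probes are printed here, from B cell and cytotoxic genes with a large difference between tissues (MS4A1, GNLY) and from genes whose probes gave unlike differences (CD3D, LAT, GNLY). The letters come from the deposited scanner files, 5′ to 3′, with positions on the cattle build Btau_3.1 that the files use. The CD3D, GNLY and MS4A1 probes marked as crossing an intron join stretches that lie apart on the genome, and they are given whole. For the others the first 30 bases are given.
CD3D, across an intron, chr15:27452806-27453285, minus strand: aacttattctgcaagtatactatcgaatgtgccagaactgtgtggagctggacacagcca
CD3D, 3′-most probe, chr15:27451220-27451279, minus strand: ttctgaaactttgggatttattttaaaaat
LAT, 5′-most probe, chr25:27679988-27680047, minus strand: tctacgtgctggggcccctgctgctgcctc
LAT, middle probe, chr25:27675983-27676042, minus strand: acaaaagcctgagaatttttcccctaactt
GNLY, across an intron, chr11:50960822-50961225, minus strand: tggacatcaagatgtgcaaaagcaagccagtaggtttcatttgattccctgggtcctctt
GNLY, other strand, chr11:50961280-50961339, plus strand: agaaatttcttcatgattgacttgcacaga
MS4A1, across an intron, chr15:84166872-84168085, plus strand: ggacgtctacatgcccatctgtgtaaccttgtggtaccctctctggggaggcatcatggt

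Values are levels, the log2 of the median spot intensity after quantile normalization over the 16 arrays. The WBC samples shared slide 1 and the endometrium samples slide 2. Slide and tissue therefore cannot be told apart, whereas each slide held 4 SCE and 4 healthy samples. The endometrium array of SCE cow 833 stood apart, with a median net intensity of 79 against 248 to 316 on the other 7 endometrium arrays, and its levels scattered around the mean of the 8 cows with an SD of 0.66 over all genes against 0.32 to 0.42 on the others. The WBC array of the same cow had the highest median net intensity in its tissue, 202.5 against 83 to 132, and an SD of 0.45 against 0.20 to 0.34. The list medians, the overlap between tissues and the SCE differences of several genes are given with and without this cow. Tissue differences of single genes in SCE cows include it. In these bulk samples fewer cells of a type and less RNA per cell cannot be told apart.

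The tissue labels were checked against marker genes. In healthy cows 10 of 10 stromal, 7 of 8 endothelial and 7 of 10 epithelial markers passed the adjusted test as higher in endometrium than in WBC, and all 8 pan-leukocyte markers (such as PTPRC, the common leukocyte antigen CD45) as lower, with a median log2 difference of -4.48. Of the neutrophil markers 11 of 12 passed as lower (median -4.64). Of the 10 monocyte and macrophage markers 4 passed as lower and 1 as higher (median -0.75). WBC also held more RNA of the red cell and platelet lists, where 6 of 7 and 6 of 6 genes passed as lower in endometrium (medians -1.26 and -2.40), and the part of these cells in the lymphocyte results was not tested.

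The question of the tissue comparison was how much lymphocyte RNA the uterine lining held beside the blood of the same animals. All 39 lymphocyte genes were lower in endometrium than in WBC, in healthy and in SCE cows alike. The median log2 difference, endometrium minus WBC, was -3.07 for the T cell genes of healthy cows, -2.09 for the NK and cytotoxic genes and -4.16 for the B cell genes. In SCE cows the medians were -3.00, -2.06 and -3.75, and without cow 833 they were -2.78, -2.20 and -4.00. By the mean of its probes the receptor chain CD3E had the largest difference among T cell genes.

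All 39 genes passed limma's TREAT test, which asks whether a change exceeds 1.2-fold, at a Benjamini-Hochberg adjusted p of at most 0.05 over all genes, in healthy cows and again in SCE cows. Lower calls were common on the whole array, at 26.4% of genes in healthy cows and 24.8% in SCE cows, and the median difference over all genes was -0.15 and -0.14. The lymphocyte genes lay far down this distribution: 35 of 39 were among the lowest 10% of all gene differences and 29 among the lowest 5% in healthy cows, with 35 and 28 in SCE cows. The levels of the healthy cows did not overlap between tissues in any of the 38 genes measured on all arrays, against a background of 36% of genes lower without overlap. In SCE cows the tissues did not overlap in 36 of 39 genes, against 27.5%, and IL2RG, GZMA and PAX5 overlapped through the endometrium array of cow 833, at 14.11, 7.50 and 10.54. Without cow 833 the tissues did not overlap in any of the 39 genes. Of the 83 probes 17, in 11 genes, were not well above background on any of the 8 endometrium arrays, so their differences, and those of the gene means that hold them, are limited by background.

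**Figure D1:**
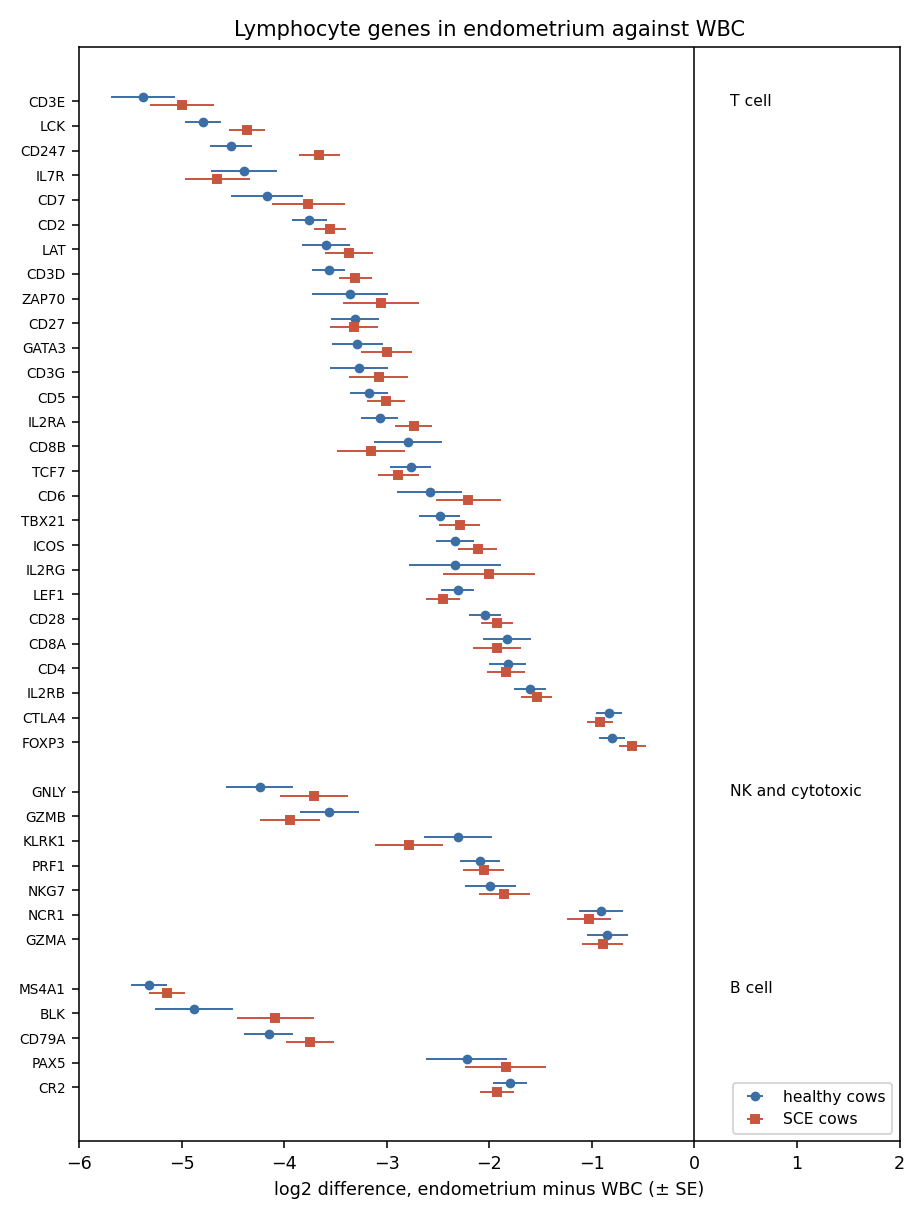
Log2 difference, endometrium minus WBC, of the 39 lymphocyte genes, grouped by cell type, with the standard error of the fit; circles are the 4 healthy cows and squares the 4 SCE cows. Every point lies left of 0, from -5.38 for CD3E to -0.80 for FOXP3 in healthy cows.

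The 4 signalling chains of the T cell receptor complex on the list (CD3D, CD3E, CD3G and CD247) were lower in endometrium, and CD3E had the largest difference of them. The antigen-binding chains were not on the list. CD3E, a signalling chain of CD3, was at 13.91, 13.17, 13.56 and 13.19 in WBC of healthy cows 841, 850, 877 and 883, and at 13.80, 12.66, 13.45 and 13.25 in SCE cows 718, 833, 836 and 846. In endometrium it was at 8.19, 8.06, 8.12 and 7.95 in the healthy cows and 9.21, 7.43, 8.36 and 8.16 in the SCE cows. Every WBC array was above every endometrium array by over 3 log2 units, and cows 718 and 833 were the highest and the lowest endometrium samples. The difference was -5.38 ± 0.31 (SE, 4 cows; 41.7-fold, adjusted p = 1.66e-09) in healthy cows and -5.00 (32.0-fold) in SCE cows. CD247 differed by -4.52 and -3.66, CD3D by -3.57 and -3.31, and CD3G by -3.27 and -3.08.

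The kinases and the adaptor downstream of the receptor were lower in endometrium too. LCK, the kinase that starts receptor signalling, differed by -4.79 in healthy and -4.36 in SCE cows. ZAP70, the kinase recruited to phosphorylated CD3 chains, differed by -3.36 and -3.06, and LAT by -3.60 and -3.37.

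The coreceptors CD4, CD8A and CD8B were lower in endometrium. The sizes for CD4 and CD8A are limited by probes at background: 4 of the 5 CD4 probes and 1 of the 2 CD8A probes were not well above background on any endometrium array. CD4, the helper T cell coreceptor, which monocytes and macrophages of some species also carry, was at 9.79, 9.13, 9.28 and 9.20 in healthy WBC and 9.54, 8.84, 9.55 and 9.68 in SCE WBC. Its endometrium levels were 7.52, 7.54, 7.56 and 7.49 in healthy cows and 7.53, 7.84, 7.44 and 7.45 in SCE cows. The 4 healthy endometrium values lay within 0.1 of each other, and the tissues did not overlap. The difference was -1.82 ± 0.18 (SE; adjusted p = 2.2e-06) in healthy cows and -1.84 in SCE cows. The only probe well above background in endometrium gave -1.16 and -1.08, and the detection of CD4 there rested on it. This probe was far brighter than the others, at 16.57 in healthy WBC and 15.41 in healthy endometrium. The other CD4 probes lay at 6.40 to 7.93 in healthy WBC and at 5.43 to 5.74 in healthy endometrium. Which probe reads CD4 best was not tested.

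CD8A, the cytotoxic T cell coreceptor, was at 8.97, 9.33, 9.20 and 8.95 in healthy WBC and 9.38, 9.65, 8.91 and 8.63 in SCE WBC. In endometrium it was at 7.0, 7.19, 7.44 and 7.49 in healthy cows and 7.54, 6.61, 7.16 and 7.55 in SCE cows. The tissues did not overlap, and cow 833 was the highest in WBC and the lowest in endometrium. The difference was -1.83 ± 0.24 (SE; adjusted p = 2.86e-05) in healthy cows and -1.93 in SCE cows, and the probe well above background in endometrium gave -2.81 in each. CD8B, the second chain of the coreceptor, differed by -2.79 and -3.16.

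Among the other surface proteins of T cells, the adhesion receptor CD2 differed by -3.76 in healthy and -3.56 in SCE cows (its WBC value of healthy cow 877 was an outlier spot, so the healthy WBC mean is over 3 cows), and CD7 by -4.17 and -3.77. CD27, a costimulatory receptor, differed by -3.31 and -3.32, CD28, the main costimulatory receptor, by -2.04 and -1.93, and ICOS, an inducible costimulator, by -2.34 and -2.12. CD6 differed by -2.58 and -2.21. CD5 was not well above background on any healthy endometrium array and was at least 9.01-fold higher in WBC. CTLA4, the inhibitory counterpart of CD28, was likewise not well above background there. By the means it was 1.79-fold higher in WBC of healthy cows, which is also its bound and the smallest of these bounds.

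The cytokine receptors spanned a wide range. IL7R, the receptor of the T cell survival factor interleukin 7, differed by -4.39 and -4.66, and was well above background on 2 of 4 healthy and 1 of 4 SCE endometrium arrays. IL2RA, the alpha chain of the interleukin 2 receptor, differed by -3.07 and -2.74, and IL2RG, the chain shared by several cytokine receptors, by -2.33 and -2.01. IL2RB was on no healthy endometrium array well above background. By the means it was 3.04-fold higher in WBC, which is also its bound.

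The transcription factors of T cells split by size. GATA3, the factor of type 2 helper cells, was at 11.64, 10.94, 11.13 and 10.83 in healthy WBC and 11.53, 10.63, 11.24 and 11.38 in SCE WBC. Its endometrium levels were 7.97, 7.78, 8.02 and 7.63 in healthy cows and 8.30, 8.84, 7.81 and 7.81 in SCE cows. The highest endometrium sample, cow 833, was still below the lowest WBC sample, which came from the same cow. The difference was -3.29 ± 0.25 (SE; 9.76-fold, adjusted p = 4.84e-08) in healthy cows and -3.00 in SCE cows.

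FOXP3, the factor of regulatory T cells, has 2 probes, and the first was not well above background on any array of either tissue, so the mean understates what the other probe shows (-1.35 in healthy and -0.85 in SCE cows). FOXP3 was at 7.06, 7.09, 6.82 and 6.88 in healthy WBC and 7.06, 6.65, 6.94 and 7.03 in SCE WBC. In endometrium it was at 6.19, 6.12, 6.07 and 6.25 in healthy cows and 6.23, 6.61, 6.33 and 6.09 in SCE cows. The tissues did not overlap, although the endometrium and the WBC of cow 833 lay within 0.1 of each other. The difference was -0.80 ± 0.13 (SE; 1.75-fold, adjusted p = 0.00157) in healthy cows and -0.61 (adjusted p = 0.0237) in SCE cows. With the cow as a block in the paired fit the call of FOXP3 in SCE cows was lost (adjusted p = 0.0698), as it was without cow 718, 836 or 846, and over all alternatives the adjusted p ran from 0.000645 to 1. With quantile normalization within each tissue its difference was -0.25 in healthy and -0.045 in SCE cows, and neither passed. TCF7 and LEF1, factors of T cell development and of naive T cells, differed by -2.77 and -2.31 in healthy cows, and TBX21, the factor of type 1 helper cells and NK cells, by -2.49.

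The granule genes of cytotoxic cells spanned a large range of tissue differences. GNLY (granulysin, a pore-forming peptide) was at 11.51, 12.05, 10.37 and 10.53 in healthy WBC and 11.46, 11.10, 10.55 and 11.35 in SCE WBC. Its endometrium levels were 6.68, 7.26, 6.66 and 6.89 in healthy cows and 7.50, 7.85, 7.01 and 7.25 in SCE cows. The tissues did not overlap, and the 2 highest endometrium samples were SCE cows 833 and 718. The difference was -4.24 ± 0.33 (SE; 18.9-fold, adjusted p = 5.19e-08) in healthy cows and -3.71 in SCE cows.

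PRF1 (perforin) was at 8.40, 8.96, 8.72 and 8.34 in healthy WBC and 9.14, 8.99, 8.56 and 8.81 in SCE WBC. In endometrium it was at 6.45, 6.40, 6.56 and 6.66 in healthy cows and 6.86, 7.36, 6.42 and 6.61 in SCE cows. Only cow 833 was above 7 in endometrium. The difference was -2.09 ± 0.20 (SE; adjusted p = 9.21e-07) in healthy cows and -2.06 in SCE cows.

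NKG7, a granule membrane protein, was at 12.30, 12.51, 12.17 and 11.53 in healthy WBC and 12.73, 11.95, 12.07 and 12.12 in SCE WBC. Its endometrium levels were 10.26, 10.18, 10.31 and 9.80 in healthy cows and 10.90, 10.51, 9.81 and 10.23 in SCE cows. The highest endometrium value, that of cow 718, lay below the lowest WBC value, that of cow 883. The difference was -1.99 ± 0.25 (SE; adjusted p = 1.96e-05) in healthy cows and -1.86 in SCE cows.

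GZMB (granzyme B) had the largest difference of the NK and cytotoxic gene means in SCE cows, although the GNLY probe across an intron differed by -5.33 and the mean of GNLY also holds a probe on the opposite strand that was at background in endometrium. GZMB was at 11.66, 11.49, 10.84 and 10.83 in healthy WBC and 12.45, 11.34, 10.98 and 11.001 in SCE WBC, and in endometrium at 7.71, 7.94, 7.37 and 7.56 in healthy cows and 7.78, 7.30, 7.60 and 7.31 in SCE cows. No endometrium sample reached 8. The difference was -3.56 in healthy and -3.94 in SCE cows. The activating receptor KLRK1 (NKG2D) differed by -2.31 and -2.78, and GZMA (granzyme A) by -0.85 and -0.89. The first GZMA probe was well above background on only 2 of 8 endometrium arrays, so background limits its part of the mean. The other probe, above it on all 8, gave -0.97 and -1.04. NCR1, the receptor NKp46, was on no endometrium array well above background. By the means it was 1.89-fold and 2.04-fold higher in WBC of healthy and SCE cows, which are also its bounds. The adjusted calls of GZMA and NCR1 were not kept in every fit that left out 1 cow: GZMA was lost in healthy cows without cow 841 and in SCE cows without 718 or 836, and NCR1 in healthy cows without 877.

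MS4A1 had the largest difference of the 5 B cell gene means, measured against endometrium values at or near background. It was at 10.92, 11.53, 11.19 and 11.42 in healthy WBC and 10.97, 10.93, 11.30 and 11.73 in SCE WBC. In endometrium it was at 6.15, 5.73, 5.94 and 5.94 in healthy cows and 6.12, 6.08, 6.0 and 6.14 in SCE cows, where 1 of 4 arrays in each group was well above background. All 8 endometrium values lay within 0.5 of each other, including that of cow 833. The difference was -5.32 ± 0.17 (SE; 40.0-fold, adjusted p = 4.84e-12) in healthy cows and -5.15 (35.5-fold) in SCE cows, sizes that background limits.

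CD79A, the signalling chain of the B cell receptor, was at 13.02, 13.48, 13.39 and 13.26 in healthy WBC and 12.84, 12.38, 13.02 and 13.92 in SCE WBC. Its endometrium levels were 9.14, 8.92, 9.32 and 9.14 in healthy cows and 9.26, 9.40, 9.33 and 9.17 in SCE cows (1 of its probes on the array of healthy cow 877 was an outlier spot and was replaced by that probe's mean over the other endometrium arrays). Every WBC sample was above 12 and every endometrium sample below 10. The difference was -4.16 ± 0.24 (SE; 17.8-fold, adjusted p = 1.64e-09) in healthy cows and -3.75 in SCE cows. BLK, a kinase of the B cell receptor pathway, differed by -4.88 and -4.09, and PAX5, the factor of B cell identity, by -2.22 and -1.84. CR2, the complement receptor of B cells, was on no endometrium array well above background and at least 3.44-fold and 3.78-fold higher in WBC of healthy and SCE cows.

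**Figure D2:**
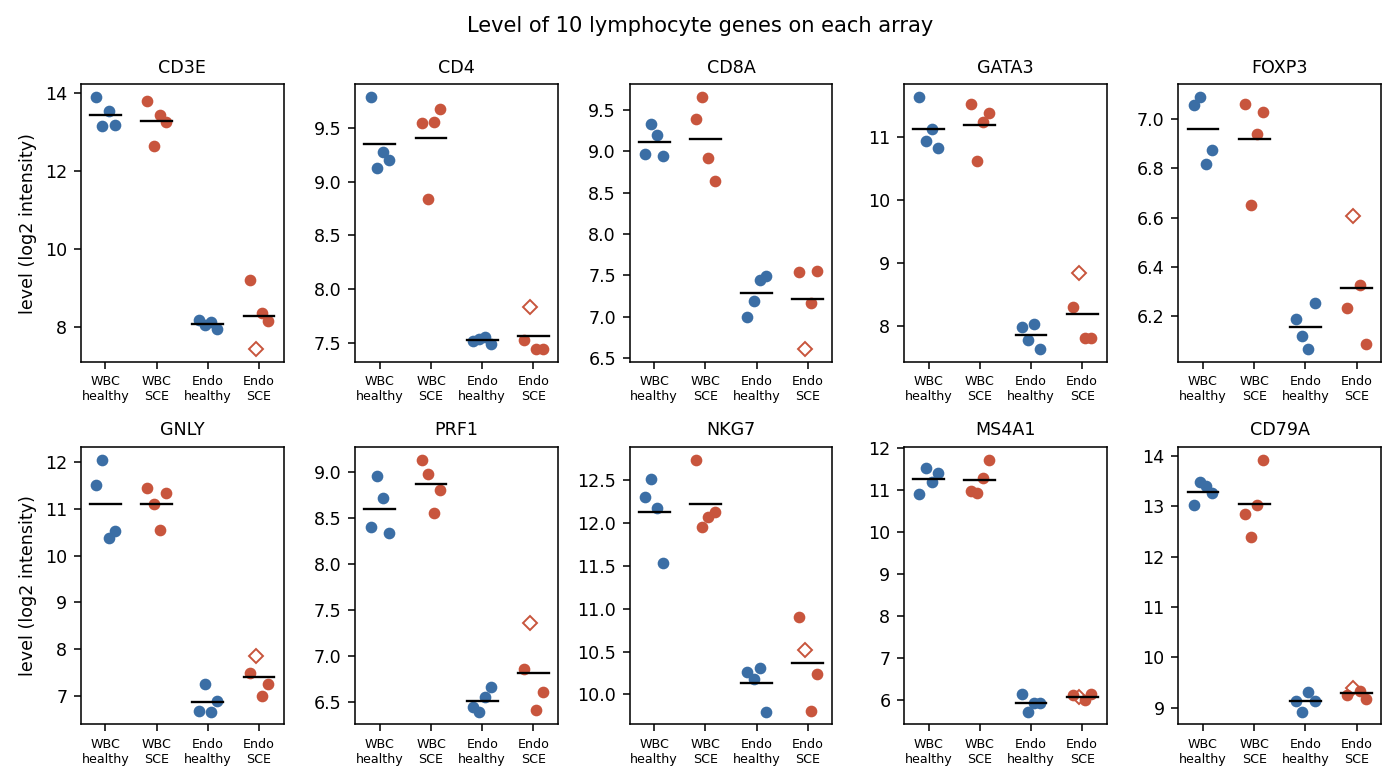
Level (log2 intensity) of 10 lymphocyte genes on each of the 16 arrays, by group; points are cows, the bar is the mean of 4 and the open diamond is the endometrium array of SCE cow 833; each panel has its own axis, which does not start at 0. WBC and endometrium separate in every panel, while SCE and healthy cows overlap within each tissue.

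Detection differed in the same direction. All 39 genes were well above background, by the scanner's own test, on all 4 WBC arrays of healthy cows, and 38 in SCE cows. In endometrium 31 genes were above background on all 4 healthy arrays and 28 on all 4 SCE arrays, while 66.5% to 67.9% of all genes passed on all healthy arrays of either tissue and 64.3% to 64.8% on all SCE arrays. A gene counted as above background if any of its probes was. By probe, 76 of the 83 passed on all WBC arrays and 38 on all endometrium arrays.

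Other genes of the same pathways, from lists of T cell, NK and B cell genes outside the 41, differed in the same direction. Of 29 T cell pathway genes on the array, 23 were called lower in endometrium in healthy cows and 21 in SCE cows, and none higher. The chemokine receptor CCR7, which guides T cells into lymph nodes, differed by -6.09, SLAMF6 by -5.81 and SIT1 by -4.75, whereas ITGAE (0.19), TIGIT (0.14) and PDCD1 (-0.20) did not pass. Of 16 NK and cytotoxic pathway genes 12 were called lower in each group of cows, led by the signalling adaptors FCER1G (-5.06) and TYROBP (-4.80), which myeloid cells also express. The interferon gene IFNG (0.08) and the NK receptor KLRF1 (0.12) did not pass. Of 19 B cell pathway genes 16 were called lower in each group, with POU2AF1, a coactivator of antibody genes, at -5.95 and the survival receptor TNFRSF13C at -5.88, while EBF1, which other cells also express, was at 0.36 and did not pass.

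Plasma cell genes, which mark the antibody-secreting stage of B cells, divided. MZB1 and DERL3 were lower in endometrium of healthy cows (-2.27 and -2.43). SDC1, PRDM1 and XBP1 were higher (4.28, 2.58 and 1.52), and all 3 are also expressed by epithelial or other secretory cells.

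The size of the tissue difference depended on which probe was read, although its direction did not. All 83 probes were lower in endometrium in healthy cows, and all 83 in SCE cows. Of the CD3D probes, the one across an intron differed by -4.76 in healthy cows and the 3′-most by -1.99. In healthy endometrium the 3′-most probe was at 13.25, and the other CD3D probes at 6.52 and 6.16. The LAT probes differed by -0.49 at the 5′ end, and by -5.24 and -5.06 at the others. Their levels in healthy endometrium were 12.81 at the 5′ end, and 7.04 and 8.11 at the others. The 5 probes of CD4 differed by -2.44, -2.19, -2.35, -0.97 and -1.16 from the 5′ to the 3′ end, of which only the last was well above background on any endometrium array and the fourth on only 1 of 8 WBC arrays. Those of LCK differed by -2.97, -5.16, -5.09, -5.36 and -5.40. The CD79A probes differed by -5.67 and -2.67, and lay at 6.09 and 12.14 in healthy endometrium. The endometrium levels of CD3D, LAT and CD79A therefore average a bright probe with dim ones, and which reads the gene best was not tested. The GNLY probe across an intron differed by -6.25, and the probe on the opposite strand of the same locus, which was not well above background on any endometrium array, by -2.23, so the mean of GNLY joins probes that do not read the same strand. The 4 GZMB probes lie at 2 places on chromosome 21, with -2.56 and -2.88 at the first and -4.42 and -4.39 at the second, and near-identical granzyme copies may share signal. Some probes of CD4, CD247, LCK, GZMB, TBX21 and IL2RA overlap each other in sequence and are not independent readings.

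**Figure D3:**
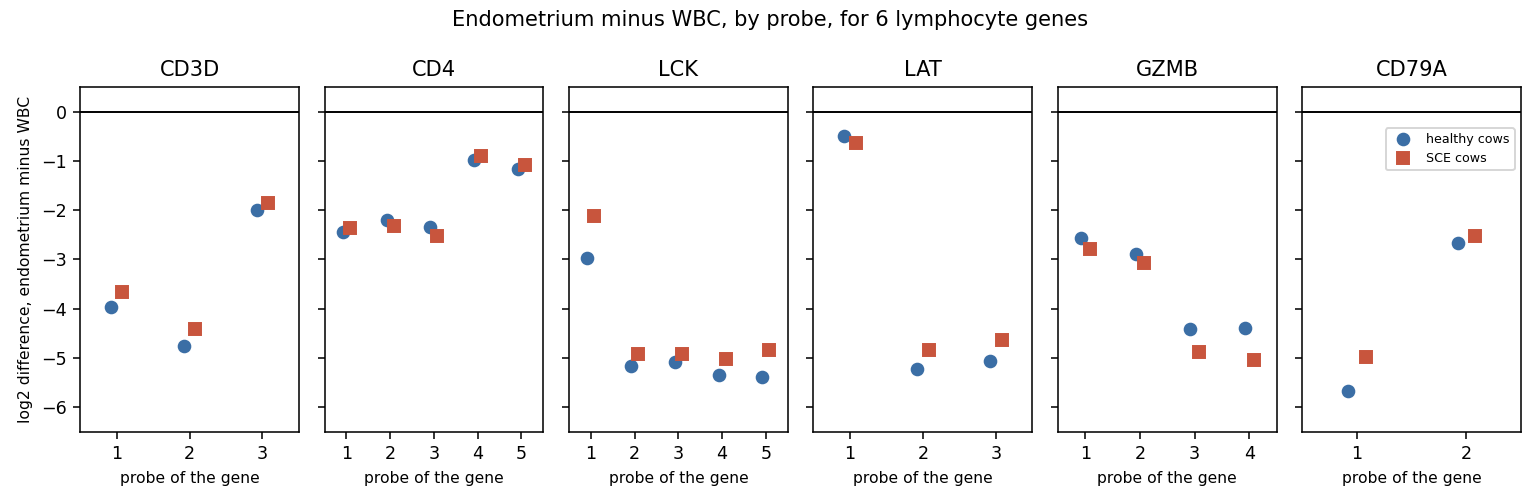
Log2 difference, endometrium minus WBC, of each probe of 6 lymphocyte genes; probes run from the 5′ to the 3′ end, except that GZMB probes 1 and 2 and probes 3 and 4 lie at separate places. All points are below 0, and in LAT probe 1 lies at -0.49 in healthy cows while the other probes lie below -5. The first 4 CD4 probes were not well above background on any endometrium array.

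The scale of the tissue comparison rested on the normalization. With quantile normalization within each tissue in place of over all arrays, the median over all genes moved from -0.15 to 0.33 in healthy cows, and 80.8% of called genes were higher in endometrium in place of 42.2% (81.9% in place of 43.3% in SCE cows). The 39 lymphocyte genes were lower under that scaling too, with medians of -2.03 and -2.14, and 35 in healthy and 34 in SCE cows passed.

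The second question was whether lymphocyte genes differed between SCE and healthy cows in either tissue. In endometrium no lymphocyte gene passed, at the adjusted or the unadjusted threshold, and none separated the 4 SCE from the 4 healthy cows. Of the 39 genes 32 had a higher mean in SCE cows, by medians of 0.18 for T cell genes (21 of 27 higher), 0.09 for NK and cytotoxic genes (6 of 7) and 0.16 for B cell genes (5 of 5), against a median of 0.00 and 50.6% higher over all genes. In WBC 20 of 39 were higher, with medians of -0.02 for T cell genes (13 of 27), 0.17 for NK and cytotoxic genes (6 of 7) and -0.03 for B cell genes (1 of 5), against -0.01 and 47.4% over all genes. Genes that share cells move together, so these counts are not independent observations. The paper also counted blood cells, in more cows than the arrays hold. It reports significantly higher numbers of leukocytes, lymphoid cells and monocytes in SCE cows. The levels here were made equal in distribution over the arrays, so they do not measure the number of cells in blood.

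Few genes of the array passed either, whereas the paper reports many genes that differed between SCE and healthy cows in each tissue by TREAT. The reason for this departure was not tested. The adjusted test called 0 genes in either tissue, and the unadjusted TREAT test at p of at most 0.05 called 0.377% of all genes in endometrium and 0.0829% in WBC. Groups without overlap were found for 1.49% of all genes in endometrium and 1.31% in WBC, and for none of the lymphocyte genes (CD2 in WBC, measured in 3 healthy cows, overlapped too). The unadjusted counts over all genes moved with single cows, from 100 to 427 without cow 846 in endometrium and from 22 to 277 without cow 833 in WBC.

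The medians in endometrium moved with single cows. Without cow 718 the T cell median was 0.05 with 16 of 27 genes higher, and without cow 833 it was 0.12 with 21 higher. The NK and cytotoxic median was 0.12 without cow 718 and 0.11 without cow 833, and the B cell median 0.17 and 0.12. In WBC the medians of all 3 lists changed sign when 1 cow was left out. The T cell median was 0.05 without cow 833, the NK and cytotoxic median -0.0092 without cow 718, with 3 of 7 genes higher, and the B cell median 0.072 without cow 833.

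**Figure D4:**
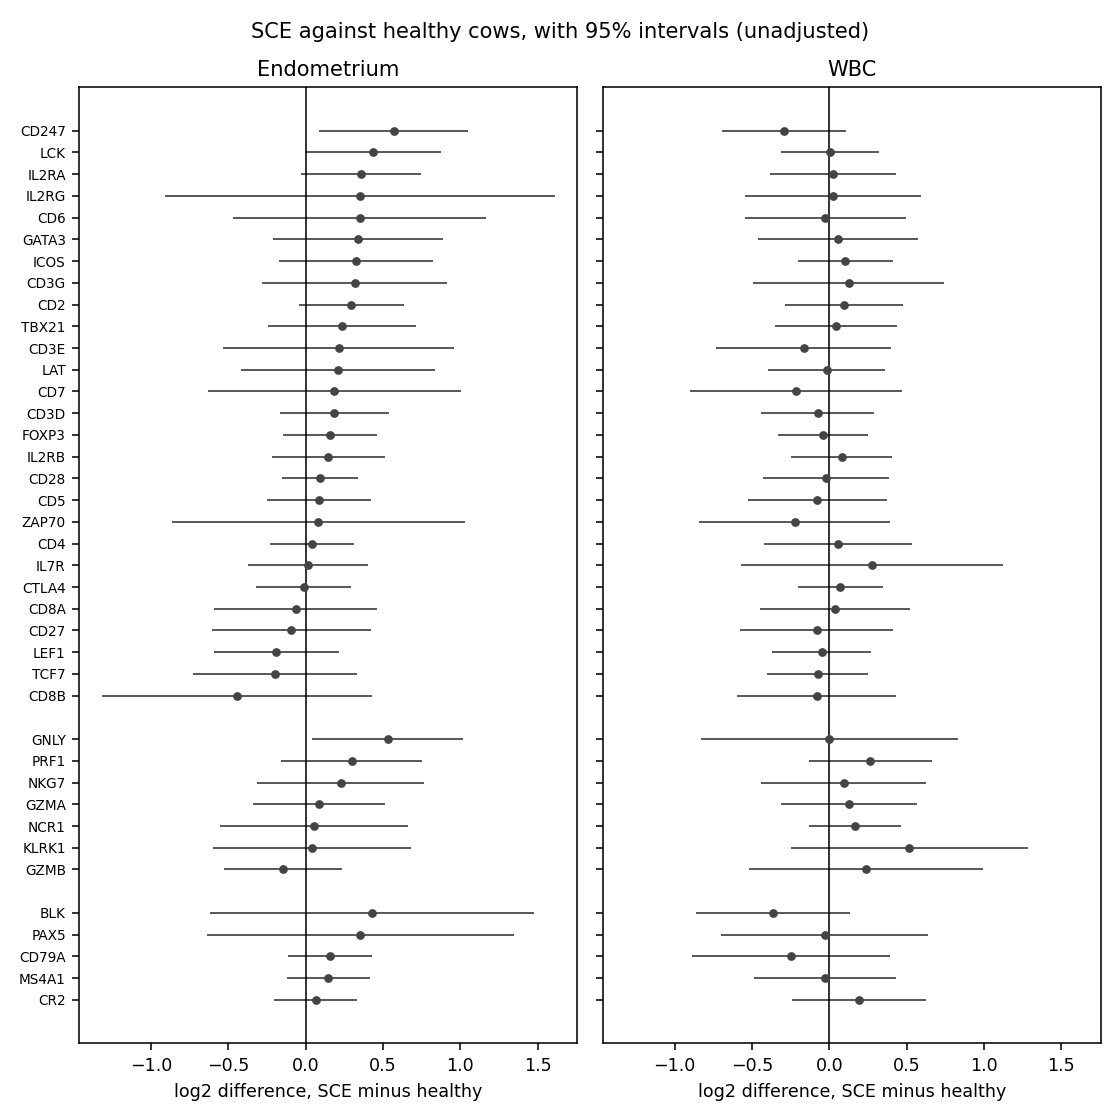
Log2 difference, SCE minus healthy, of the 39 lymphocyte genes in endometrium and WBC, with unadjusted 95% intervals of the fit; genes are grouped as T, NK and cytotoxic, and B cell genes from top to bottom. Most endometrium points lie right of 0, and the intervals of CD247 and GNLY alone lie wholly on 1 side of it.

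In endometrium CD247 had the largest positive difference. It was at 10.17, 9.95, 10.81 and 10.37 in healthy cows and 11.08, 11.11, 10.56 and 10.83 in SCE cows. Cow 877, the highest healthy cow, lay above cow 836, the lowest SCE cow. The difference was 0.57 with a 95% interval of 0.09 to 1.05, an unadjusted TREAT p of 0.094 and a two-sided exact permutation p of 0.0571, where the smallest possible for 4 against 4 is 0.0286. In WBC the same gene was at 14.84, 14.50, 15.31 and 14.73 in healthy cows and 14.56, 14.79, 14.44 and 14.42 in SCE cows, and the groups overlapped (difference -0.29, exact permutation p = 0.2).

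GNLY came next, with an endometrium difference of 0.53 (0.04 to 1.01, exact permutation p = 0.0857), and healthy cow 850 at 7.26 lay above SCE cows 836 and 846. Its probes differed in size, at 0.89 across the intron and 0.17 on the opposite strand. The difference of LCK was 0.44, that of PRF1 0.30 (-0.16 to 0.75) and that of NKG7 0.23 (-0.31 to 0.77). CD8B had the lowest, at -0.44. For these genes the exact permutation p was at or above 0.0571. The sizes moved with single cows: without cow 833 GNLY differed by 0.38, PRF1 by 0.11 and CD8B by -0.21, and without cow 718 LCK differed by 0.26 and NKG7 by 0.050.

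The remaining genes named by role overlapped between SCE and healthy cows and had wide intervals. In endometrium CD3E differed by 0.21 (-0.53 to 0.96), CD4 by 0.04 (-0.23 to 0.31), CD8A by -0.06 (-0.59 to 0.46), GATA3 by 0.34 (-0.21 to 0.89) and FOXP3 by 0.16 (-0.15 to 0.46). The B cell genes MS4A1 and CD79A differed by 0.15 (-0.12 to 0.41) and 0.16 (-0.11 to 0.43). Without cow 833 GATA3 differed by 0.12 and FOXP3 by 0.059, without cow 718 CD3E by -0.092, and without cow 850 MS4A1 by 0.077 and CD79A by 0.088. The half-width of the interval had a median of 0.48 over the 39 genes, from 0.25 for CD28 to 1.26 for IL2RG, and CD247 and GNLY, whose differences exceeded theirs, did not pass TREAT.

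In WBC the smallest exact permutation p was 0.143, for BLK (-0.36). CD3E differed by -0.17, CD4 by 0.05, CD8A by 0.04, GATA3 by 0.05, FOXP3 by -0.04, PRF1 by 0.27, NKG7 by 0.09, MS4A1 by -0.03 and CD79A by -0.25. GNLY differed by 0.00, and KLRK1 had the largest difference at 0.52. Without cow 833 BLK differed by -0.19 and CD79A by -0.028, and KLRK1 ran from 0.34 without cow 718 to 0.82 without cow 846. Intervals had a median half-width of 0.46.

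The probes of a gene did not always share a sign in these small differences. Of 28 genes with several probes, all probes had the same sign of the SCE difference in 22 genes in endometrium and 13 in WBC, counts that include probes at background. In endometrium the GZMB probes gave 0.20 and 0.21 at the first place and -0.41 and -0.59 at the second, and the LEF1 probes -0.68 and 0.30.

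Of the other genes of the 3 pathway lists, 0 passed the unadjusted TREAT test between SCE and healthy cows in either tissue. Higher means in SCE endometrium were found for 26 of 29 T cell pathway genes, 11 of 16 NK and cytotoxic and 15 of 19 B cell pathway genes, with medians of 0.11, 0.07 and 0.11. In WBC the counts were 13, 9 and 5.

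Markers of several other cell types in the biopsy moved as well. Between SCE and healthy endometrium 7 of 8 pan-leukocyte markers were higher (median 0.13), as were 7 of 8 endothelial (median 0.29), 10 of 12 neutrophil (median 0.14), 5 of 6 platelet (median 0.11) and 8 of 10 epithelial markers (median 0.63). Of the stromal markers 9 of 10 were lower (median -0.43), and the remaining one, TCF21, was higher by 1.45. The medians of 3 lists moved little: 4 of 10 monocyte and macrophage (-0.02), 2 of 5 plasma cell (-0.06) and 3 of 7 red cell markers (-0.0017) were higher. Over all genes 50.6% were higher. TCF21 and the neutrophil gene S100A8, named after their values were seen, passed the unadjusted test, as higher. The summed stromal level ran from 17.28 to 18.04 in healthy and 15.48 to 18.19 in SCE cows, with cow 833 at 15.48. The summed epithelial level ran from 12.53 to 15.15 and from 13.56 to 15.12, and the pan-leukocyte level from 13.67 to 14.09 and from 13.50 to 14.96. The part of biopsy composition in the lymphocyte values was not tested.

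Whether the SCE difference itself differed between tissues was tested as an interaction. CD247 alone of the 39 genes passed the unadjusted TREAT test, with an endometrium minus WBC difference of the SCE effects of 0.86 ± 0.29 (SE; 95% interval 0.25 to 1.47, unadjusted p = 0.0277, adjusted p = 1.0), where 0.384% of all genes passed. With the cow as a block in the paired fit the value was 0.86 and CD247 again passed. The call was lost when cow 841, 718 or 846 was left out, with values between 0.80 and 0.94 over the 8 fits that each left out 1 cow, and without cow 833 ZAP70 passed as well. The value of BLK was 0.79 (95% interval -0.35 to 1.93), and it did not pass. The smallest unadjusted TREAT p among the B cell genes was 0.203.

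The cows' mean deviations spanned more than the differences between the groups. In endometrium SCE cow 718 lay above the mean of the 8 cows by 0.31 over the T cell genes and had the highest level in 12 of 27. Its mean over the pan-leukocyte markers was 10.79, against 9.38 to 9.97 in the other 7 cows. Cow 833 was the highest in 9 T cell genes and the lowest in another 9, with a mean deviation of 0.02 and an SD over the genes of 0.69. Healthy cow 850 was the lowest in 7 T cell genes (mean -0.21) and had the lowest B cell mean, -0.43.

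Over the NK and cytotoxic genes cow 833 had the highest endometrium mean (0.32), followed by cow 718 (0.26). In WBC cow 718 was the highest of 8 in 6 of 7 of these genes (mean deviation 0.56), and healthy cow 883 was the lowest in 5 of 7 (-0.49). Cow 833 was the lowest in 15 of 26 T cell genes (-0.22) and in 3 of 5 B cell genes (-0.53), whereas cow 846 was the highest in 3 of 5 B cell genes (0.47). Cow 718 was above the mean over T cell genes in WBC also (0.24). The SCE group therefore held both the cow with the highest and the cow with the lowest T cell mean in blood.

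**Figure D5:**
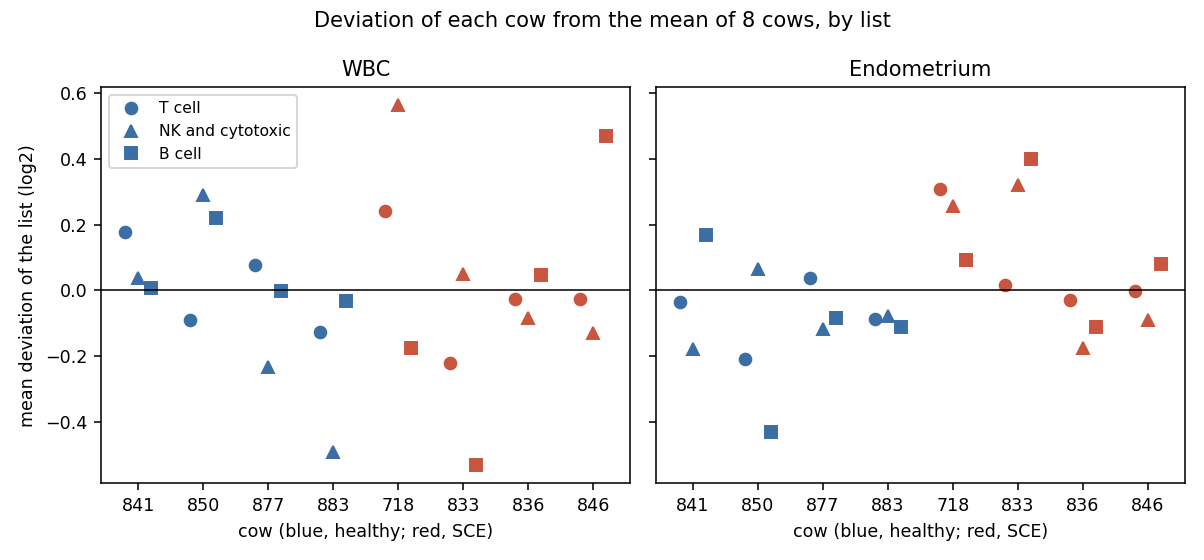
Mean deviation (log2) of each cow from the mean of the 8 cows over T cell, NK and cytotoxic, and B cell genes, in WBC and endometrium; blue marks are healthy cows and red marks SCE cows. In endometrium the highest T cell mark is SCE cow 718 at 0.31, and in WBC the NK and cytotoxic marks run from -0.49 in healthy cow 883 to 0.56 in SCE cow 718.

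The median spread between cows over all 39 lymphocyte genes was larger in the SCE group, but not in each of the 3 lists. The median SD over the 39 genes in endometrium was 0.18 in healthy and 0.37 in SCE cows, and 0.25 in SCE cows without cow 833, while over all genes it was 0.20, 0.27 and 0.18. In WBC it was 0.26, 0.38 and 0.28 over the lymphocyte genes and 0.18, 0.24 and 0.17 over all genes. The B cell genes in endometrium went the other way, at 0.16 in healthy and 0.11 in SCE cows. So did the NK and cytotoxic genes in WBC, at 0.42 and 0.39. The T cell genes in both tissues, the NK and cytotoxic genes in endometrium and the B cell genes in WBC spread more in SCE cows. Without cow 833 the T cell spread in WBC was 0.21 in SCE cows, against 0.24 in healthy cows. These spreads are a description with no test.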

How the data were processed

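Circulating WBC and endometrium of 4 healthy and 4 SCE cows were measured on 16 single-colour arrays. Spot intensities, read from the scans by the authors with version 10.10.1.1 of Agilent Feature Extraction, were deposited as they came from the scanner. A second table from the authors, of normalized intensities, had its rows matched here by their order in the scanner files (rank correlation with each array's own signals above 0.999) and served as an alternative.

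From the deposited intensities, control spots and outlier spots (190 to 465 per array) were left out, the median signals were put on the log2 scale, made equal in distribution over the 16 arrays (quantile normalization), and probes were averaged per gene name. For each tissue a separate fit compared SCE with healthy cows, and 1 model of 4 groups gave the tissue differences and the interaction. The test was TREAT of the R package limma (versions 4.3.3 and 3.58.1) at 1.2-fold, with Benjamini-Hochberg adjustment over all genes at 0.05. The study's methods name this test beside a fold change rank ordering method. Steps were tested on simulated data. Single genes were compared with two-sided exact permutation tests. A gene not well above background on any array of a group was given a bound, the WBC mean over the higher, per array, of the gene's own value and the lowest value well above background. This bound does not allow for the spread between cows. For CTLA4, IL2RB and NCR1 it equalled the plain difference of means. Only 1 spot or none per array was saturated. The number of arrays limits the precision.

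The members, gene lists and tests were chosen with earlier results of these data known. Values by cow were given for a fixed set (CD3E, CD4, CD8A, CD79A, MS4A1, GNLY, PRF1, NKG7, FOXP3 and GATA3), for the largest tissue difference of each class, and for genes passing or separating SCE from healthy cows; CD247 was added for its values. Tissues of 1 cow pair the samples because they share the animal. Their deviations from the group means correlated by 0.07, 0.10, 0.08 and 0.09 in healthy cows 841, 850, 877 and 883 and by -0.05, -0.22, 0.07 and -0.02 in SCE cows 718, 833, 836 and 846, over 26554 genes. Alternatives were other normalizations and background corrections, the authors' values, the brightest probe, a filter on dim probes, no fold threshold, another prior variance, slide row or cow as a block, 1 fit for all arrays, and leaving out each cow.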

Additional observations from a re-analysis of the deposited data

Results flagged for a closer look

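Levels that lay far from the other 3 cows of their group, by Dixon's test, were found in 13 combinations of gene and group, where chance gives about 1 in 20. In endometrium of SCE cows 6 of 39 genes were concerned against 9.65% of all genes, and 5 of the 6 were high values on the array of cow 833: CD6 (7.97), TBX21 (8.50), GZMA (7.50), NCR1 (6.66) and PAX5 (10.5). The sixth was CD3D in cow 718 (9.24). In endometrium of healthy cows they were CD5 in cow 877 (5.86) and NCR1 in cow 850 (6.15), 2 of 39 genes against 6.27%. In WBC of SCE cows they were CD4 (8.84) and IL2RG (13.6) in cow 833, both low, and CTLA4 in cow 718 (7.09), 3 of 39 against 7.81%. In WBC of healthy cows they were CD5 in cow 877 (9.28) and ZAP70 in cow 850 (10.4), 2 of 38 against 6.03%.

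The SCE difference of CD247 differed between tissues by 0.86 at the unadjusted threshold only, from 0.57 in endometrium and -0.29 in WBC.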

How the results depend on the processing

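In all 19 settings the 39 lymphocyte genes were lower in endometrium, and 35 to 39 in healthy and 34 to 39 in SCE cows passed. Within-tissue normalization lost CTLA4, FOXP3, GZMA and NCR1, and in SCE cows PAX5; normexp lost FOXP3 in SCE cows, and the brightest probe alone LAT; with the cow as a replicate block in the paired fit 39 and 38 passed, with FOXP3 lost in SCE cows (-0.61), and no other call changed. The processed signal moved the median of all genes to -0.46 in healthy and -0.35 in SCE cows, and that of the lymphocyte genes to -3.94 and -3.76.

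Between SCE and healthy cows, the processed signal gave a B cell median of 0.41 in endometrium, and no fold threshold gave 1 T cell gene (CD247) and 1 NK gene (GNLY). Leaving out 1 cow gave 0 to 1 T cell genes in endometrium (CD247 without 877 or 836, CD8B without 846), 0 to 1 NK genes in endometrium (GNLY without 836) and in WBC (KLRK1 without 846), and a T cell median in endometrium of 0.045 to 0.23, lowest without 718. For the interaction it gave 0 to 2 T cell genes (0 without 841, 718 or 846, CD247 and ZAP70 without 833) and 0 to 1 B cell genes (CD79A without 846). Over all genes, 100 unadjusted calls in endometrium became 215 with the processed signal, 503 with no fold threshold and 257 in 1 fit of 16 arrays, 22 in WBC became 105 and 409 with the first 2 settings, and 102 for the interaction became 202 and 469. Leaving out 1 cow gave 77 to 427 such calls in endometrium (427 without 846, 234 without 883), 22 to 277 in WBC (277 without 833, 85 without 846, 61 without 850, 60 without 718 and 34 without 841) and 73 to 429 for the interaction (429 without 846, where 2 genes also passed the adjusted test, 312 without 833 and 210 without 883).

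Small uncalled differences changed sign. The processed signal gave CD8A 0.088 in endometrium, and MS4A1 0.026 and FOXP3 0.0092 in WBC. In WBC the brightest probe gave CD4 -0.011, MS4A1 0.015 and CD8A -0.084, the last also with dim probes left out, and GNLY was 0.0058 with within-tissue normalization and 0.016 with the authors' values. Leaving out each cow gave ranges in endometrium of -0.092 to 0.50 for CD3E, -0.052 to 0.080 for CD4 and -0.18 to 0.14 for CD8A. In WBC they were -0.34 to 0.043 for CD3E, -0.037 to 0.24 for CD4, -0.13 to 0.21 for CD8A, -0.088 to 0.049 for FOXP3, -0.057 to 0.24 for GATA3, -0.25 to 0.31 for GNLY, -0.19 to 0.072 for MS4A1 and -0.11 to 0.22 for NKG7. The cause was not tested. Genes near background in endometrium, such as CD5, CR2 and NCR1, have only a bound there.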

Other observations

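A probe that the files describe as CD79B antigen-like, under the name LOC509801, lay outside the gene name match. Its level was 11.2 ± 0.42 (SD, n = 4) in WBC of healthy cows and 11.1 ± 0.52 in WBC of SCE cows, and 6.41 ± 0.10 and 6.52 ± 0.23 in endometrium. The tissue difference was -4.83 in healthy cows (adjusted p = 3.21e-10, limma TREAT) and -4.58 in SCE cows (adjusted p = 6.72e-10), between those of the B cell genes CD79A and MS4A1.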
